A study of Drosophila melanogaster with 6 samples.

Results

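The genes of the mitochondrial genome were taken as all genes whose symbol begins with mt: in the counts of single cells from adult Drosophila melanogaster testes, which gave 37 of the 17612 genes counted. They are 13 mRNAs, 2 ribosomal RNAs (rRNAs) and 22 transfer RNAs (tRNAs). Their counts were summed for each library and each of the 17 cell types of the study, 6 of the germline and 11 somatic. The libraries of 3–5 d flies were kept apart from those of older flies, because the share of the mitochondrial rRNAs differs between them.

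Testes of chinmoST and wild-type males were profiled at 3–5 d, 6–8 d and 9–11 d of adult life with droplet-based sequencing of 3′ ends (10x Genomics, version 3), with 1 library per genotype and age and approximately 100 pairs of testes pooled in each. The strain of the mutant libraries is labelled ChinmoST and their genotype field gives the Sod1 allele X-39 with e[1], over the balancer TM3 with Sb[1] and Ser[1], while the wild-type libraries are of the strain Oregon R. The allele chinmoST is a presumed regulatory mutation that removes the transcription factor Chinmo from the cyst stem cells and their progeny, the somatic cells that enclose the germ cells, and the difference in strain background cannot be told apart from the allele. Cells of all 6 libraries were dissociated with trypsin and depleted of spermatids. A group therefore holds 1 library per age, and the later ages, 6–8 d and 9–11 d, give 2 libraries per genotype.

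The mitochondrial genome is a small circle of DNA that every mitochondrion carries in several copies. Its mRNAs encode core membrane subunits of 4 complexes of oxidative phosphorylation, the chain that oxidises NADH and uses the resulting proton gradient to make ATP, and its rRNAs and tRNAs build the separate mitochondrial translation system. Both strands are transcribed into long precursors, which are cut at the tRNAs into single RNAs that receive short poly(A) tails. All other mitochondrial proteins, including the partners of these subunits, are encoded in the nucleus. In the testis of the fly, mitochondria multiply in spermatogonia and spermatocytes, fuse into a single body in the early spermatid and stretch along the growing sperm tail, and their DNA is removed from the elongating spermatid with the help of the nuclease EndoG and of the DNA polymerase subunit PolG1 (also known as tam).

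The complex I subunits lie at mitochondrion_genome positions 240–1263 (mt:ND2), 5608–5961 (mt:ND3), 6409–8125 (mt:ND5), 8207–9545 (mt:ND4), 9545–9835 (mt:ND4L), 9971–10495 (mt:ND6) and 11721–12659 (mt:ND1) of the BDGP6 annotation. The complex IV subunits lie at 1474–3009 (mt:CoI), 3083–3767 (mt:CoII) and 4736–5524 (mt:CoIII), and mt:Cyt-b of complex III lies at 10499–11635. The ATP synthase subunits are mt:ATPase8 (3907–4068) and mt:ATPase6 (4062–4736), and the rRNAs are mt:lrRNA (12735–14058) and mt:srRNA (14131–14916), of the large and the small ribosomal subunit. Of these 15 genes 9 are on the plus strand and 6 on the minus strand. mt:ATPase8 and mt:ATPase6 share 7 bases on the same strand, while mt:ATPase6 and mt:CoIII, and mt:ND4 and mt:ND4L, share 1 base. The members of each pair can be parts of 1 transcript that is counted at its 3′ end, so the low counts of mt:ATPase8 and mt:ND4L are uncertain as levels of their own.

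The files held 31832 barcodes, of which the authors kept 26549 as cells with 200 to 6000 detected genes and under 10% of unique molecular identifiers (UMIs) from the mitochondrial genome. Kept cells held 24746443 to 41822738 UMIs per library. The 3–5 d libraries stood apart in their barcodes as well. They shared 255 barcodes with each other and 0 or 1 with any later library in 8 pairs, while the later libraries shared 5 to 93 barcodes in 6 pairs. The annotated types were checked against 46 marker genes, of which 32 were highest in their own type. In 13 of the 17 types at least 1 marker was highest in its own type, and the exceptions were early cyst cells, intermediate cyst cells, intermediate spermatocytes and late spermatocytes.

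Among kept cells the mitochondrial genome gave 3907397 UMIs. The 13 mRNAs held 3194203 of them (81.7%), the rRNAs 713092 (18.2%) and the 22 tRNAs 102 (0.00261%). Of the tRNAs, 8 had no UMI in any library, and the most counted were mt:tRNA:Ser-GCT with 29 UMIs, mt:tRNA:Arg-TCG with 18, mt:tRNA:Ala-TGC with 17, mt:tRNA:Val-TAC with 14 and mt:tRNA:Gly-TCC with 6. The protocol primes on poly(A), and no level of a tRNA is given below.

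The level of a gene is given in CPM, its UMIs divided by all UMIs of the same cells and multiplied by 1000000. Over the 4 later libraries mt:lrRNA had the highest mean with 5333 CPM, followed by mt:CoI with 3858, mt:CoII with 3834 and mt:CoIII with 3491. The protocol counts 3′ ends, so UMIs need not scale with gene length, and the order of the genes is another per kb. Per kb of gene length, the mean over these libraries was 5597 CPM for mt:CoII, which takes electrons from cytochrome c, 4424 for mt:CoIII, 4374 for mt:ATPase6, which forms the proton channel of ATP synthase, and 4028 for mt:lrRNA. mt:CoI, the catalytic subunit of complex IV, had 2512 CPM per kb and mt:Cyt-b, which holds the quinone sites of complex III, had 1825. The complex I mRNAs came lower on both scales. mt:ND6 and mt:ND3 had 1251 and 1247 CPM per kb, and mt:ND4, mt:ND1, mt:ND5 and mt:ND2 had 660.0, 487, 452 and 449.5, while without division by length mt:ND4 was the highest of the complex I mRNAs with 884 CPM. mt:srRNA had 364 CPM per kb, so it was counted at less than mt:lrRNA although each ribosome holds both. mt:ATPase8 and mt:ND4L, with 60.9 and 53.1 CPM per kb, were the lowest.

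The share of all UMIs that came from the mitochondrial genome was 1.67%, 2.69% and 3.06% in chinmoST at 3–5 d, 6–8 d and 9–11 d, and 1.05%, 2.08% and 2.38% in wild-type. The share was higher at each later age in both genotypes, and at every age higher in chinmoST. Exact binomial (Clopper-Pearson) intervals are narrow at this depth, 3.05% to 3.06% at the 95% level for chinmoST at 9–11 d, and cover counting error only. Median UMIs per kept cell were 2264, 1990 and 1865 in chinmoST and 4123, 3296 and 2372.5 in wild-type, so at each age the chinmoST library had the higher share and the shallower cells. The part of depth in these shares was not tested.

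The limit of 10% was applied by the authors to the same quantity and cuts its upper end. The files held 7060, 5000 and 5000 barcodes for chinmoST and 4772, 5000 and 5000 for wild-type, and no source used here says how the equal numbers of the later libraries were set, so a percent of barcodes depends on how many were taken. The limit removed 3.90%, 19.6% and 30.54% of barcodes in chinmoST and 1.01%, 9.28% and 18.9% in wild-type at the 3 ages. The removed barcodes held 16.9%, 38.5% and 48.9% of all mitochondrial UMIs of the chinmoST libraries and 5.41%, 25.0% and 37.6% of those of the wild-type libraries. Kept cells close under the limit, at 8% to 10%, made up 1.65%, 4.37% and 6.17% of chinmoST cells and 0.312%, 2.66% and 4.79% of wild-type cells. The levels below are those of the cells that remained. The removed barcodes carry no cell type, so how much of its upper end each type lost is not known.

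The later libraries differed from the 3–5 d libraries gene by gene. Of the 15 mRNAs and rRNAs 12 were higher in all 4 later libraries than in both 3–5 d libraries and none was lower in all 4, and the size of the difference ran from 1.00-fold for mt:Cyt-b to 66.5-fold for mt:srRNA. This split is part of how the genes were grouped, so it is described and not tested. No share over all genes was set beside the count of 12, and nothing is read from it. mt:srRNA had 323 and 466 CPM in chinmoST and 159 and 195 CPM in wild-type at 6–8 and 9–11 d, against 6.19 CPM in chinmoST and 2.42 CPM in wild-type at 3–5 d, a ratio of means of 66.5. mt:ND2, a proton-pumping subunit of complex I, had 495.5 and 505 CPM in chinmoST and 364 and 477 CPM in wild-type at the later ages, against 14.5 and 8.01 CPM at 3–5 d (41.0-fold). mt:ND3 had 518 and 630.2 CPM in chinmoST and 270.2 and 348 CPM in wild-type, against 30.7 and 13.7 CPM at 3–5 d (19.9-fold). The lowest later value of mt:ND3 was 8.81 times the highest 3–5 d value, and that of mt:ND2 and mt:srRNA 25.1 and 25.7 times.

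mt:lrRNA differed less than mt:srRNA, with 6110 and 7043 CPM in chinmoST and 3848 and 4333 CPM in wild-type at the later ages, against 1471 and 968 CPM at 3–5 d (4.37-fold). The rRNAs together made up 23.9% and 24.6% of the mitochondrial UMIs of the later chinmoST libraries and 19.2% and 19.0% of those of the later wild-type libraries, against 8.86% in chinmoST and 9.23% in wild-type at 3–5 d. mt:ND4L was 14.7-fold, mt:ND6 10.3-fold, mt:ND5 6.87-fold, mt:ND4 4.55-fold and mt:ND1 2.22-fold higher by means at the later ages. mt:CoIII was 2.41-fold and mt:ATPase8 2.18-fold higher.

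The 4 remaining mRNAs were within 2-fold. mt:CoI and mt:CoII were each 1.31-fold and mt:ATPase6 was 1.25-fold higher at the later ages. mt:Cyt-b had 2093 and 2592 CPM in chinmoST and 1688 and 1927 CPM in wild-type at the later ages, against 2734 and 1418 CPM at 3–5 d (1.00-fold), with overlap between the ages. The highest single value of this gene was that of chinmoST at 3–5 d.

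For scale, genes with at least 10 CPM in all later libraries or in both 3–5 d libraries were compared by means with 1 CPM added. Of these 6430 genes 0.358% were over 10-fold higher at the later ages and 0.218% over 10-fold higher at 3–5 d, with a median of 0.990-fold. Among the 14 mitochondrial mRNAs and rRNAs at this minimum 4 were over 10-fold higher at the later ages. Since the grouping used this split, nothing is read from that count. Age and barcode set cannot be told apart in this comparison, since both 3–5 d libraries differ from all later ones in each.

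**Figure D1:**
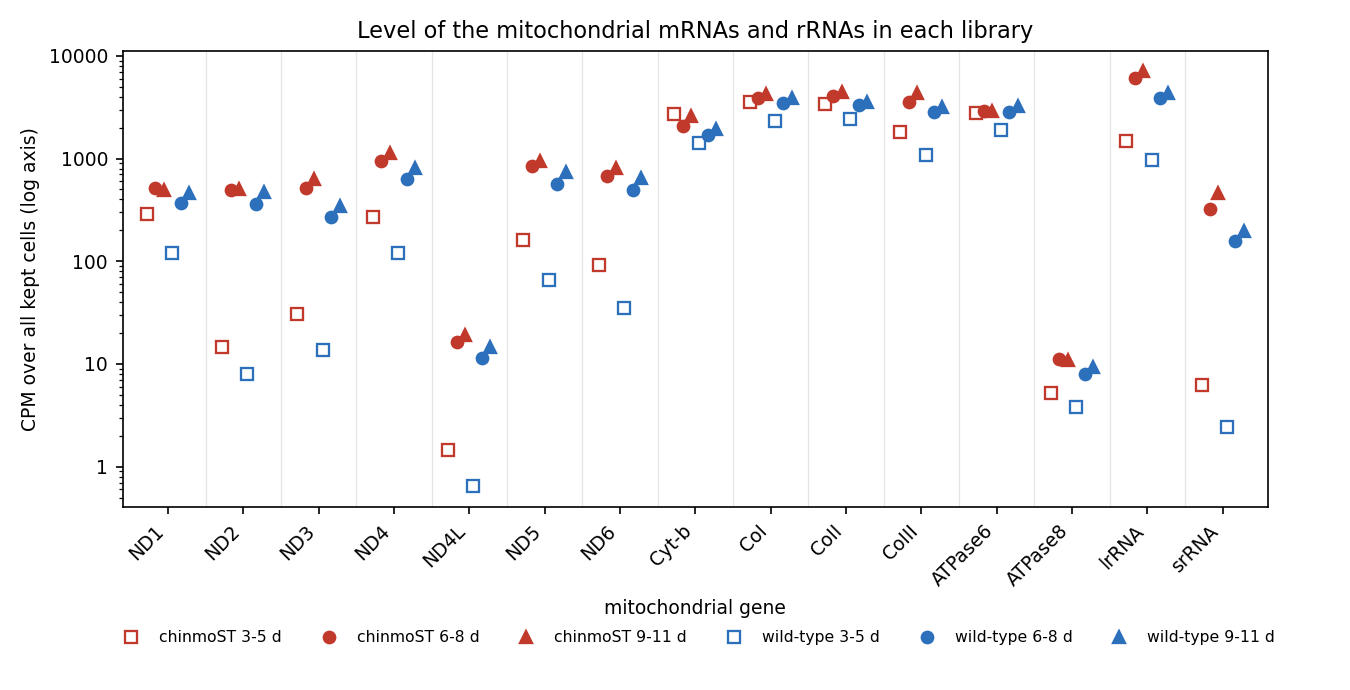
Level of the 13 mitochondrial mRNAs and 2 rRNAs in each library, in CPM over all kept cells on a log axis, with chinmoST (red) left of wild-type (blue), open squares for 3–5 d, circles for 6–8 d and triangles for 9–11 d. The open squares of mt:ND2, mt:ND3 and mt:srRNA lie between 2.42 and 30.7 CPM while their filled symbols lie between 159 and 630.2, and the symbols of mt:Cyt-b overlap.

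The split between ages was repeated in the cell types, which come from the same libraries and are not independent of each other. In all 17 types the 4 later libraries were above both 3–5 d libraries for mt:ND2, mt:ND3, mt:ND4, mt:ND5, mt:ND6 and mt:srRNA. The same held in 16 types for mt:CoIII and mt:lrRNA, in 13 for mt:ND1 and in 12 for mt:ND4L. It held in 7 types for mt:CoI and mt:CoII, in 6 for mt:ATPase6 and mt:ATPase8 and in 2 for mt:Cyt-b, which was lower in all later libraries in 3 types. These counts of types have no share over all genes beside them either.

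The share of UMIs from the mitochondrial genome differed between cell types, and late spermatids stood at the bottom. By the mean over the later libraries germline stem cells (GSCs) and spermatogonia came first, but they ranked first in 1 of the 6 libraries, wild-type at 6–8 d, and eighth in chinmoST at 3–5 d and 9–11 d, and their later wild-type values of 4.40% and 5.99% come from 6 and 4 cells. In the later libraries it was 4.67% ± 0.923 (SD, n = 4 libraries) in GSCs/spermatogonia, 4.49% ± 0.588 in early cyst cells and 4.44% ± 2.11 in cyst stem cells (CySCs). It was 2.18% ± 0.855 in early spermatocytes, 1.66% ± 0.0309 in late spermatocytes, 1.39% ± 0.0863 in early spermatids, 1.21% ± 0.185 in intermediate spermatocytes and 0.932% ± 0.237 in late spermatids. Late spermatids ranked last in 5 of the 6 libraries and next to last in the other, wild-type at 6–8 d.

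Most neighbours in this order did not differ beyond their spread. GSCs/spermatogonia exceeded early cyst cells in 3 of 4 later libraries, early cyst cells exceeded CySCs in 3, and CySCs exceeded hemocytes (3.94%) in 2. Terminal epithelial cells (3.93%), pigment cells (3.75%), late cyst cells (3.72%), somatic cells at the base of the testis (3.59%), intermediate cyst cells (3.43%), hub cells (3.39%) and muscle cells (2.94%) followed, and each was above the next in 2 or 3 of the 4 libraries. The male gonad associated epithelium, at 1.46% ± 0.269, was the only somatic type among the germline values. The high value of CySCs rested on 7 cells of wild-type at 9–11 d, with 7.26% against 2.78% in 4 cells at 6–8 d and 2.86% and 4.86% in chinmoST, and 42.9% of those 7 cells lay at 8% to 10%.

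**Figure D2:**
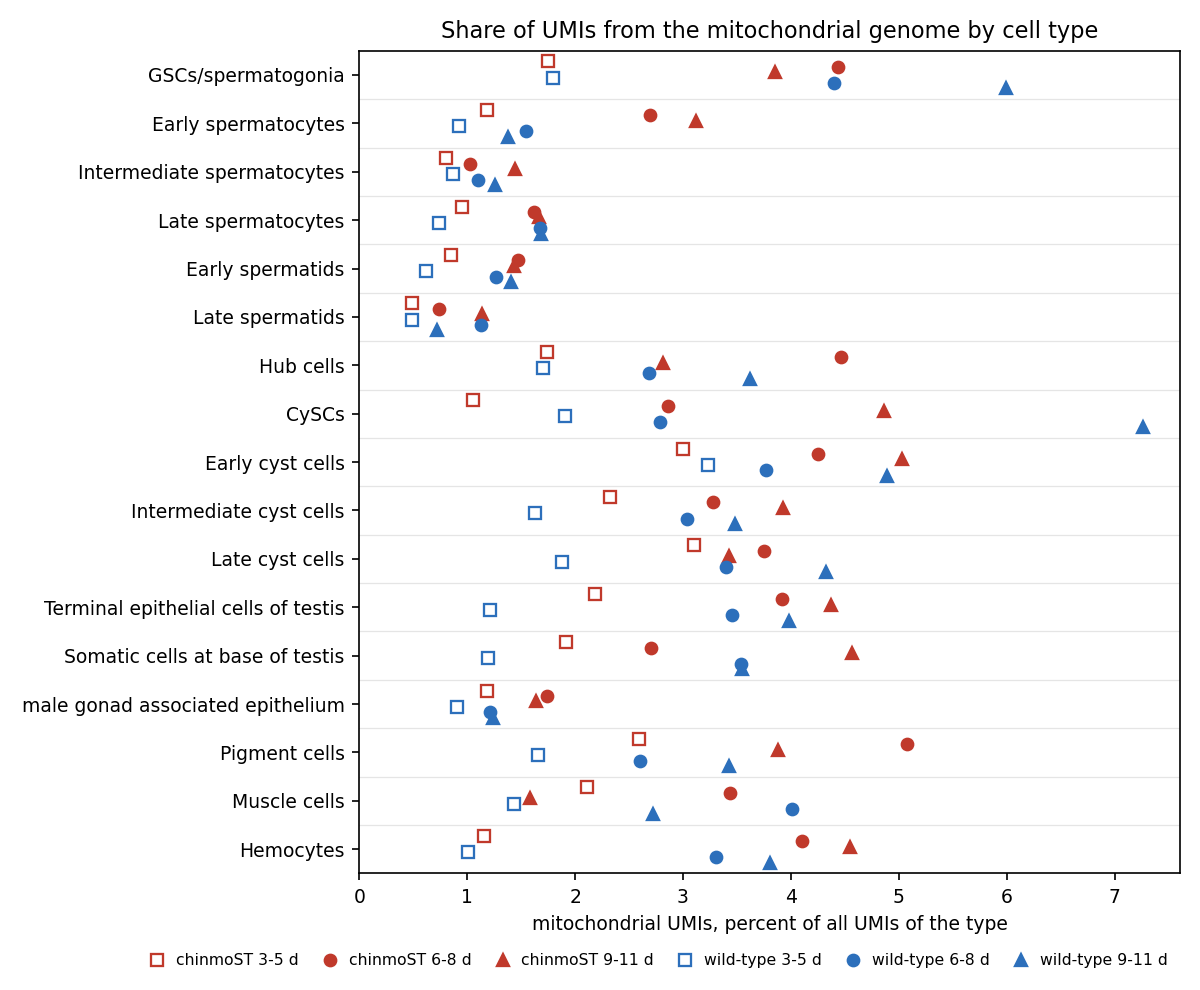
Mitochondrial UMIs as percent of all UMIs (horizontal axis) in the 17 cell types, 1 symbol per library, with chinmoST (red) above wild-type (blue) in each row and open squares for 3–5 d. Germline types from early spermatocytes to late spermatids and the male gonad associated epithelium lie left of most somatic types, and the red and blue filled symbols are apart in early spermatocytes, 2.70% and 3.12% against 1.54% and 1.38%. Filled red symbols also lie right of the blue ones in early spermatids, the male gonad associated epithelium, pigment cells and hemocytes. In late spermatocytes they lie left, by a narrow gap.

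Single genes followed the share with a few exceptions. Over the later libraries 13 of the 15 genes had their highest mean in GSCs/spermatogonia, terminal epithelial cells, somatic cells at the base or early cyst cells, and in all of these but mt:srRNA the first and second type exchanged places in at least 1 of 4 libraries. mt:srRNA averaged 974.5 ± 288 CPM in GSCs/spermatogonia and 606 ± 179.7 CPM in CySCs, and was higher in GSCs/spermatogonia in 4 of 4 libraries. Late spermatids had the lowest mean for 11 of the genes.

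The other 2 genes were those of ATP synthase, which had their highest mean in pigment cells, the cells of the testis sheath. mt:ATPase6 averaged 8783 ± 2035 CPM in pigment cells and 4181 ± 1894 CPM in muscle cells, the next type, and was higher in pigment cells in 4 of 4 libraries (SD, n = 4). mt:ATPase8 averaged 60.9 ± 38.6 CPM in pigment cells, a value that rests on few UMIs. It made up 0.0639% to 0.338% of the 2919 to 7718 mitochondrial mRNA UMIs of this type in a later library. The lowest mean of mt:ATPase6 was not in spermatids but in the male gonad associated epithelium, at 1576 ± 187 CPM.

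The ratio of mt:ATPase6 to mt:CoI UMIs, which does not depend on the other genes of a cell, was above that of most somatic types in spermatocytes and spermatids. In pigment cells it was 1.83, 1.54 and 2.19 in chinmoST at 3–5 d, 6–8 d and 9–11 d and 1.86, 1.73 and 2.39 in wild-type. In the later libraries it averaged 1.54 ± 0.175 in intermediate spermatocytes, 1.39 ± 0.161 in late spermatocytes, 1.32 ± 0.0981 in late spermatids, 1.25 ± 0.212 in early spermatids and 1.08 ± 0.121 in early spermatocytes. Apart from pigment and muscle cells, every somatic type lay below 1 in all 6 libraries, with later means of 0.455 in somatic cells at the base to 0.844 in the male gonad associated epithelium.

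GSCs/spermatogonia were on the somatic side, with 0.666, 0.608 and 0.592 in chinmoST and 0.562, 0.961 and 0.411 in wild-type. Early spermatocytes exceeded the male gonad associated epithelium in 6 of 6 libraries. Muscle cells were divided, with 0.687, 1.98 and 1.23 in chinmoST and 0.619, 0.540 and 0.623 in wild-type, where the later wild-type values come from 5 cells each. Both genes were among the 4 that lay within 2-fold between the ages.

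**Figure D3:**
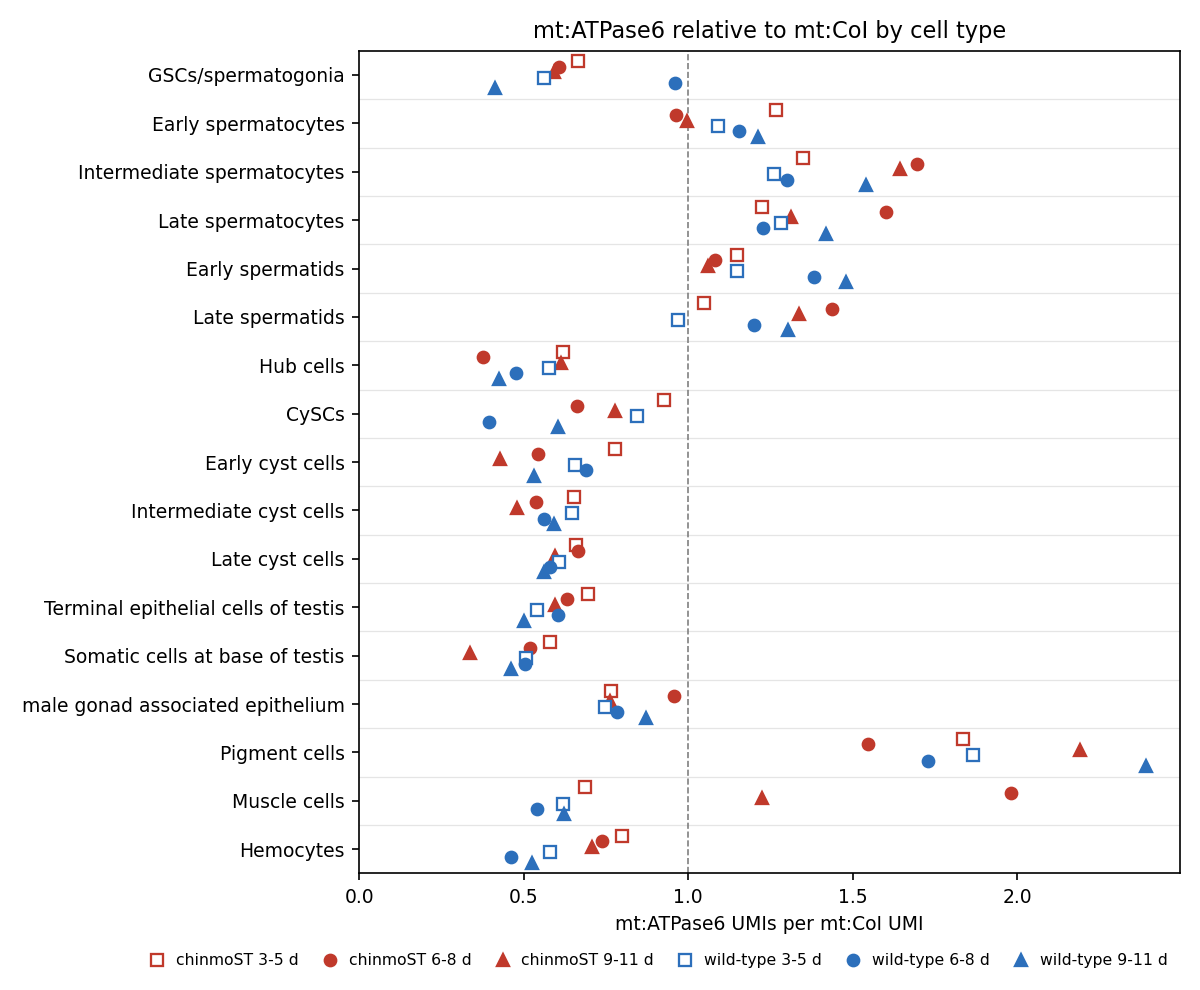
UMIs of mt:ATPase6 per UMI of mt:CoI (horizontal axis, dashed line at 1) in the 17 cell types, 1 symbol per library, with chinmoST (red) above wild-type (blue). Pigment cells lie between 1.54 and 2.39 in the 6 libraries, spermatocytes and spermatids between 0.962 and 1.69, and the remaining types below 1 except for 2 chinmoST values of muscle cells.

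The part taken by mt:lrRNA also differed between types. In the later libraries it made up 33.3% ± 4.03 of mitochondrial UMIs in the male gonad associated epithelium, 31.8% ± 5.75 in CySCs and 29.9% ± 6.37 in early cyst cells, and 13.5% ± 4.92 in terminal epithelial cells (SD, n = 4 libraries). Early spermatids had 26.2% and 32.4% in chinmoST and 24.2% and 16.8% in wild-type at the later ages. At 3–5 d this type had 3.40% in chinmoST and 2.10% in wild-type, and the highest value at that age was that of hub cells, 24.1% in chinmoST and 32.6% in wild-type.

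The comparison of genotypes asked which mitochondrial genes differed between chinmoST and wild-type within a cell type. Summed counts of the 4 later libraries, 2 per genotype, were compared with the quasi-likelihood test of edgeR over all genes of a type, and a gene was called at a Benjamini-Hochberg adjusted p under 0.05. The libraries of a genotype differ in age, so the p-values measure the spread between these libraries, age included. Over the 17 types 17 tests of mitochondrial genes were called higher in chinmoST and 5 lower, where 6.29% of all 91127 tests were called higher and 6.23% lower. With 13 to 15 members tested per type, the share of member tests called higher was near that of all genes and the share called lower was below it. All calls of mitochondrial genes fell in 3 germline types. In early spermatocytes 14 of 15 tested members were higher in chinmoST, in late spermatocytes 2 were higher and 5 lower, and in early spermatids 1 was higher.

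In early spermatocytes of chinmoST, the first germ cells that have left mitosis, the mRNAs of all 4 complexes and both rRNAs were higher than in wild-type. Of all 7569 genes tested in this type, 25.2% were called higher and 21.3% lower, so the type differed widely between the genotypes. The median log2 fold change, chinmoST over wild-type, was 1.43 over the 15 members and 0.0863 over all genes tested. In CPM, both later chinmoST libraries were above both wild-type libraries for 14 of the 15 members, where 32.7% of 9683 genes with at least 10 UMIs were above and 37.6% below.

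mt:ND3 differed most, with 16.8, 582 and 716 CPM in chinmoST at 3–5 d, 6–8 d and 9–11 d and 7.24, 163 and 144 CPM in wild-type. Both later chinmoST values were more than 3 times both later wild-type values, and the log2 fold change was 2.28 (SE 0.266, edgeR adjusted p = 1.6e-10). mt:srRNA had 2.81, 318 and 643 CPM in chinmoST and 0, 127 and 118 CPM in wild-type, where the value of 0 allows up to 3 UMIs. Its later groups did not overlap, and the log2 fold change was 2.17 (SE 0.274, adjusted p = 1.9e-09).

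Next came other complex I mRNAs. mt:ND6, a small membrane subunit, had 42.1, 770.4 and 871 CPM in chinmoST and 30.8, 293 and 329.6 CPM in wild-type, a log2 fold change of 1.63 (SE 0.265, adjusted p = 1.3e-06). mt:ND5, a proton-pumping subunit, had 137.5, 683.5 and 846 CPM in chinmoST and 27.1, 293 and 333 CPM in wild-type (log2 fold change 1.52, SE 0.263, adjusted p = 4.8e-06). These 2 genes lie on opposite strands, and in both the later groups did not overlap.

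mt:ND2 had 11.2, 515 and 617 CPM in chinmoST and 1.81, 209 and 282 CPM in wild-type, a log2 fold change of 1.45 (SE 0.254, adjusted p = 6.4e-06). mt:ND4 had 104, 870.2 and 985 CPM in chinmoST and 88.7, 374 and 413 CPM in wild-type, a log2 fold change of 1.46 (SE 0.269, adjusted p = 1.5e-05). The later groups did not overlap for either gene.

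The other members for which a fold change is given had lower values, that of mt:lrRNA close to that of mt:ND2. The log2 fold change was 1.43 for mt:lrRNA, 1.19 for mt:CoIII, 1.17 for mt:Cyt-b, 1.15 for mt:ND1, 1.11 for mt:CoII, 1.08 for mt:CoI and 0.81 for mt:ATPase6, whose adjusted p of 0.0475 (edgeR) is close to the threshold. mt:ND4L was called at 14 and 32 UMIs in chinmoST and 3 and 1 UMIs in wild-type, so its fold change is not given. mt:ATPase8, at 14 and 26 UMIs in chinmoST and 8 and 2 UMIs in wild-type, was not called (adjusted p = 0.542, edgeR).

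At 3–5 d, with 1 library per genotype and no test, the same type gave a smaller gap in most genes. mt:CoI had 2312 CPM in chinmoST and 1994 CPM in wild-type, mt:CoII had 2329 CPM in chinmoST and 2122 CPM in wild-type, and mt:lrRNA had 710.0 CPM in chinmoST and 592 CPM in wild-type. Mitochondrial UMIs made up 1.18%, 2.70% and 3.12% of the UMIs of early spermatocytes in chinmoST and 0.921%, 1.54% and 1.38% in wild-type. The median over cells was lower, 0.986%, 1.39% and 1.84% in chinmoST and 0.684%, 0.907% and 0.793% in wild-type.

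Several other properties of these cells moved with genotype. chinmoST had 130, 452 and 906 early spermatocytes at the 3 ages and wild-type had 106, 102 and 79. Their median UMI count was 1673, 1390 and 1476 in chinmoST and 3518, 3308 and 2581 in wild-type. Mitochondrial UMIs per cell were therefore 73.5 and 71.9 in later chinmoST cells and 97.5 and 54.6 in later wild-type cells, which overlap, so the call is one about the share of a cell's RNA and not about the number of mitochondrial UMIs in a cell.

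Markers of the preceding type were also higher. The 4 markers of GSCs and spermatogonia that were counted (aub, zpg, vas and bam) summed to 115, 162 and 187 CPM in chinmoST early spermatocytes and 59.7, 13.95 and 64.0 CPM in wild-type, and zpg was at 0 in both later wild-type libraries. The 3 markers of early spermatocytes (Rbp4, kmg and wuc) summed to 923, 556 and 466 CPM in chinmoST and 798, 367 and 502 CPM in wild-type. At least 1 UMI of a marker of GSCs and spermatogonia was seen in 26.3% and 26.0% of later chinmoST cells and in 8.82% and 20.3% of later wild-type cells. In the cells without such a UMI, a set chosen after seeing these data, 12 of 13 tested members were called higher and none lower, where 977 of 6562 genes were called higher and 677 lower. A cell of this depth can lack a UMI of a gene that it expresses, more often in the shallower chinmoST cells. This set is therefore not free of cells with these markers, and their part in the calls was not tested.

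The number of calls depended on the libraries. Without wild-type at 6–8 d 6 members were called higher, with 731 of 8383 genes called higher, and without wild-type at 9–11 d 7 were, with 1931 of 8453 genes. With the 3–5 d libraries added, which the grouping keeps apart, none of 13 tested members was called by edgeR, while 211 of 6501 genes were called higher and 51 lower, and 7 were called with age as a term in the model, with 1059 genes higher and 725 lower. Without the trimmed-mean (TMM) scaling of edgeR 13 members were called higher, with 1451 genes higher and 2199 lower, against 1907 higher and 1611 lower with it, and the median of all genes moved to -0.12.

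In late spermatocytes the same genes gave a mixed picture. mt:ND3 and mt:srRNA were again higher in chinmoST, while the abundant mRNAs of complexes III and IV and mt:ATPase6 were lower. Of the 8040 genes tested 17.7% were called higher and 17.6% lower, and 5 members were called lower, 2 higher. The median log2 fold change was -0.20 over the members and 0.0609 over all genes tested. In CPM, both later chinmoST libraries were above both wild-type libraries for 5 members and below for 4, where 49.9% of 10565 genes were above and 18.8% below.

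mt:CoI had 1903, 1962 and 2157 CPM in chinmoST and 1555, 2494 and 2421 CPM in wild-type. Its later groups did not overlap, and the log2 fold change was -0.48 (SE 0.115, edgeR adjusted p = 0.0060). mt:ND3 had 11.5, 318 and 334 CPM in chinmoST and 5.13, 192 and 207 CPM in wild-type, a log2 fold change of 0.49 (SE 0.116, adjusted p = 0.0061). The 2 genes thus differed in opposite directions in the same cells.

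mt:Cyt-b had 1512, 1114 and 1249.8 CPM in chinmoST and 1028, 1333 and 1328 CPM in wild-type (log2 fold change -0.40, SE 0.114, adjusted p = 0.015, edgeR). mt:CoIII had 978, 2010.2 and 2275 CPM in chinmoST and 673, 2353 and 2414 CPM in wild-type (-0.38, SE 0.118, adjusted p = 0.022). For both genes the chinmoST value was the higher at 3–5 d and the lower at the later ages.

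mt:CoII had 2049, 2338 and 2501 CPM in chinmoST and 1662, 2728 and 2568 CPM in wild-type (-0.36, SE 0.114, adjusted p = 0.025, edgeR). mt:srRNA had 1.09, 211 and 213 CPM in chinmoST and 1.099, 151 and 125 CPM in wild-type (0.38, SE 0.125, adjusted p = 0.027). mt:ATPase6 was called lower (-0.35, adjusted p = 0.034), but its later values of 3140 and 2832 CPM in chinmoST and 3061 and 3437 CPM in wild-type overlap.

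The lower calls in late spermatocytes rest on the scaling between libraries and on 1 library. The share of mitochondrial UMIs in this type was 1.62% and 1.66% in later chinmoST and 1.67% and 1.69% in later wild-type. Without TMM scaling 1 member was called lower and 4 higher, while the median of all genes moved to 0.29 and 2137 of 8040 genes were called higher and 571 lower, against 1423 higher and 1416 lower with it. Without chinmoST at 6–8 d no member was called lower and 1 was called higher, while 818 of 8559 genes were called higher and 865 lower. Markers of other germ cells moved with genotype here too. The summed markers of GSCs and spermatogonia stood at 46.4 and 31.3 CPM in later chinmoST late spermatocytes and 8.56 and 4.06 CPM in wild-type, and those of intermediate spermatocytes (nht, Taf12L and sa) at 276 and 229.9 CPM in chinmoST and 144 and 94.7 CPM in wild-type. A UMI of a marker of GSCs and spermatogonia was seen in 10.5% and 9.23% of later chinmoST cells and in 3.08% and 1.15% of later wild-type cells. Without these cells 2 members were again called higher and 5 lower, where 1315 of 7866 genes were called higher and 1379 lower. Cells that express such a marker without a counted UMI remain in this set too.

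The genotype effect was then compared between early and late spermatocytes in 1 model of both types, a test added after seeing the data. It was larger in early spermatocytes for 13 of 15 members, with differences of 0.99 to 1.63 on the log2 scale (edgeR, adjusted p at most 0.0449), where 5.57% of 9149 genes differed in either direction. mt:ND4L and mt:ATPase8 were not called. With the library as a block, which takes account of both types coming from the same libraries, 12 members differed, at 7.12% of all genes, and mt:ATPase6 did not (adjusted p = 0.0722).

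**Figure D4:**
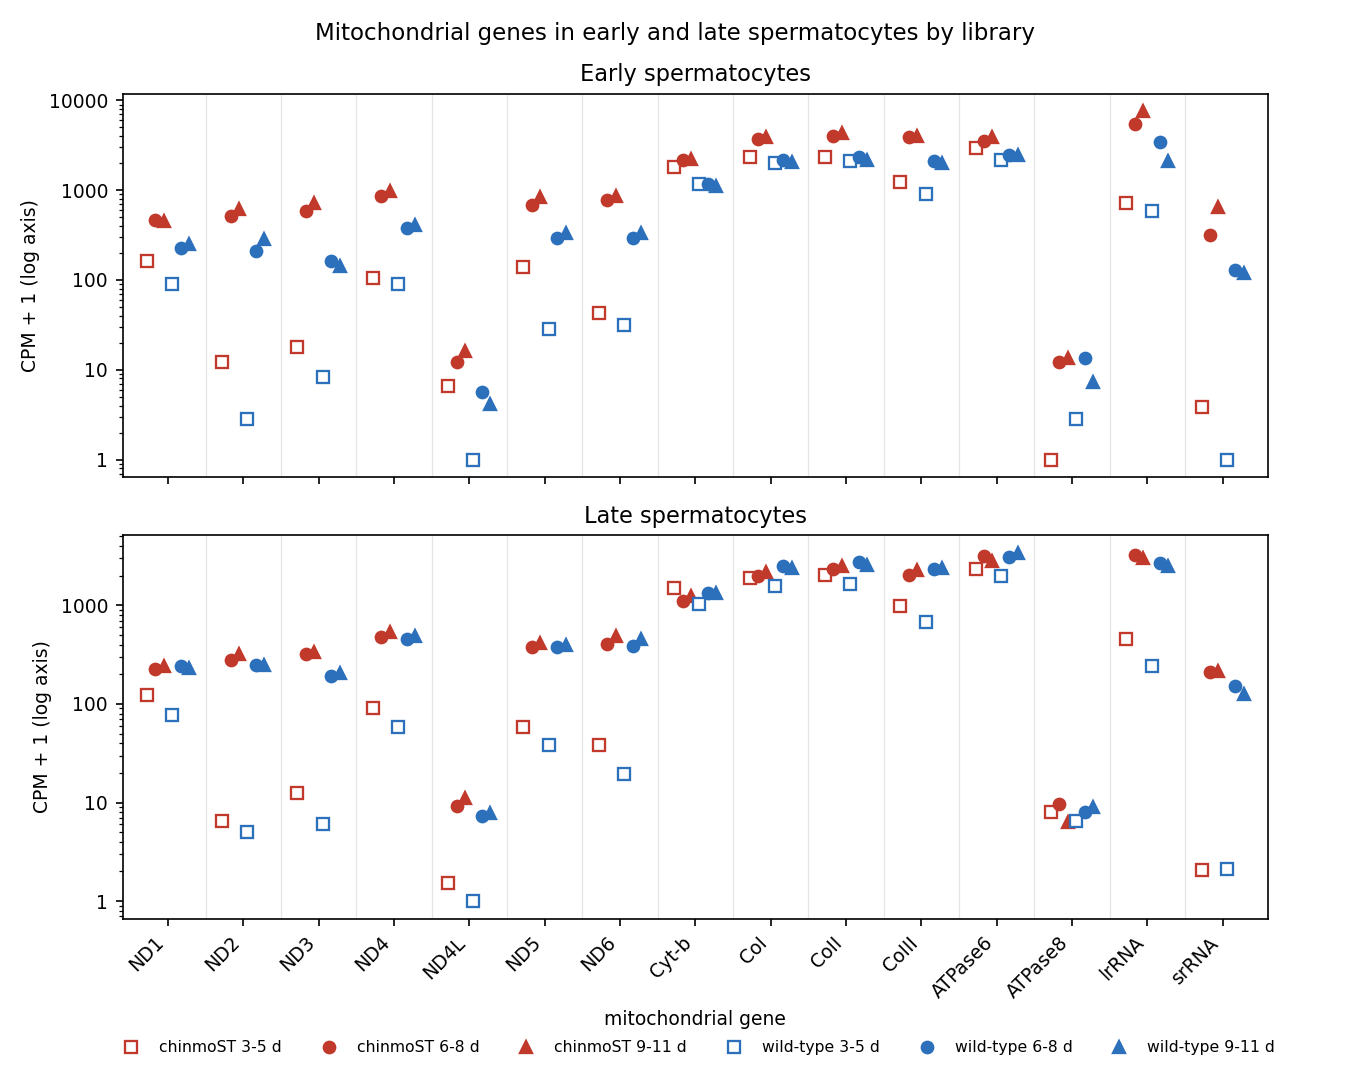
Level of the mitochondrial mRNAs and rRNAs in early (upper panel) and late spermatocytes (lower panel), in CPM plus 1 on a log axis, 1 symbol per library, with chinmoST (red) left of wild-type (blue) and open squares for 3–5 d. In early spermatocytes the filled red symbols lie above the filled blue ones for 14 of 15 genes, and in late spermatocytes mt:CoI (1962 and 2157 against 2494 and 2421 CPM) and mt:ND3 (318 and 334 against 192 and 207 CPM) differ in opposite directions.

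In early spermatids, where 4.34% of 8946 genes were called higher and 5.45% lower, mt:lrRNA was the only member called. It had 289.5, 3853 and 4635 CPM in chinmoST and 130.1, 3074 and 2357 CPM in wild-type, a log2 fold change of 0.54 (SE 0.131, edgeR adjusted p = 0.0302). The later groups did not overlap, but the gene was not called without chinmoST at 9–11 d, at a common UMI minimum or with the 3–5 d libraries added. In the 14 other types no member was called by edgeR, with 14 tests at an unadjusted p under 0.05, and DESeq2 called 2, both in GSCs/spermatogonia. Leaving out a library gave calls in some of them. In intermediate spermatocytes 5 of 13 members were lower without chinmoST at 9–11 d, where 1016 of 7522 genes were called higher and 1306 lower, and 3 of 13 were higher without chinmoST at 6–8 d, where 403 of 6370 genes were called higher and 566 lower. In muscle cells 5 of 13 members were lower without chinmoST at 6–8 d, where 180 of 910 genes were called higher and 206 lower.

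In GSCs/spermatogonia the test had little material, since wild-type held 6 cells at 6–8 d and 4 at 9–11 d with 21736 and 21506 UMIs, and chinmoST held 211 and 162 cells. The mitochondrial share was 4.44% and 3.85% in chinmoST and 4.40% (95% interval 4.13% to 4.68%) and 5.99% (5.68% to 6.32%) in wild-type. No member was called, 1 had an unadjusted p under 0.05, and DESeq2 called 2 higher, in a type where edgeR called 7.05% of genes higher and 6.98% lower. Restricted to cells under 5% mitochondrial UMIs 13 of 15 members were called higher, with 423 of 6309 genes higher and 376 lower and a median of all genes of 1.60, and without wild-type at 9–11 d 9 were, with 941 of 8197 genes higher and 433 lower and a median of 1.44. The direction of the fitted changes depended on the scaling. mt:CoI had 5676 and 4937 CPM in chinmoST and 5935 and 7347 CPM in wild-type, lower in chinmoST, while its fitted log2 fold change with TMM scaling was 0.59 in a fit whose median over all genes was 0.79.

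In pigment cells all 14 tested members had a positive log2 fold change, with a median of 1.14 over the members and 0.0376 over all 2423 genes tested, and none was called by edgeR (1 at an unadjusted p under 0.05) or DESeq2. The nuclear subunits of the 4 complexes also had positive medians in pigment cells, given below, so the direction was not particular to the members. Leaving out either later chinmoST library, which left 1 of that genotype, gave calls of members as higher. The mitochondrial share was 5.08% and 3.88% in chinmoST and 2.61% and 3.43% in wild-type, from 42 to 52 cells per library. In hub cells, with 10 to 18 cells per library, all 13 tested members were positive. Their median was 0.29, against 0.00488 over all 4722 genes tested, of which edgeR called 0. No member was called by edgeR (0 at an unadjusted p under 0.05) or DESeq2. In CPM 0 of 15 members were separated between the later genotypes, where 18.9% of 7754 genes were above and 26.7% below. The members share their libraries, so their common direction is not a set of repeats. In the male gonad associated epithelium all 13 tested members were positive, with a median of 0.34, against -0.0175 over all 5543 genes tested. In CPM 12 of 15 members were above in both later chinmoST libraries, where 26.4% of 8447 genes were above and 19.3% below. None was called by edgeR (3 at an unadjusted p under 0.05) or DESeq2. In CySCs 3 of 13 tested members were positive, with a median of -0.13 over the members and 0.0357 over all 3723 genes tested. The nuclear subunits of the 4 complexes had lower medians in CySCs, given below.

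Over all germ cells the share from the mitochondrial genome was 0.902%, 2.28% and 2.88% in chinmoST and 0.652%, 1.33% and 1.37% in wild-type, a difference of 1.23 percentage points at the later ages. Over all somatic cells it was 2.43%, 3.34% and 3.51% in chinmoST and 1.64%, 3.14% and 3.69% in wild-type, and the later difference of 0.00758 points was smaller than the spread between libraries and took either sign when a library was left out. The germline difference moved with the makeup of the germ cells. GSCs/spermatogonia held 11.0%, 26.8% and 51.2% of germline UMIs in chinmoST and 2.41%, 0.105% and 0.139% in wild-type. Without this type the germline share was 0.797%, 1.49% and 1.86% in chinmoST and 0.624%, 1.33% and 1.36% in wild-type, and the later difference was 0.328 points.

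Within the mitochondrial mRNAs, mt:ND3 took a larger part in chinmoST than in wild-type. It made up 0.202%, 2.53% and 2.73% of mitochondrial mRNA UMIs in chinmoST and 0.144%, 1.61% and 1.80% in wild-type at the 3 ages. Both later chinmoST libraries were above both later wild-type libraries in all 17 cell types, and the 3–5 d pair had the same direction in 13. Over all 13 mRNAs and 17 types such a separation was seen upward in 30.3% of 221 cases, those of mt:ND3 included, and downward in 16.7%. The types share their libraries and are not repeats of the comparison.

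The smallest gap was in hub cells, with 2.09% and 2.01% in chinmoST and 1.95% and 1.80% in wild-type. In late spermatocytes mt:ND3 had 2.51% and 2.50% in chinmoST and 1.38% and 1.46% in wild-type, and in muscle cells 2.65% and 2.69% in chinmoST and 0.967% and 1.49% in wild-type. These gaps are present both where the mitochondrial share was higher in chinmoST and where it was not. In CPM, which also follows the share of the whole mitochondrial genome, mt:ND3 was separated in 11 of 17 types, where 29.9% of 136408 gene and type pairs with at least 10 UMIs were. Among barcodes removed for a mitochondrial share of 10% or more, mt:ND3 made up 0.163%, 3.06% and 3.55% of mitochondrial mRNA UMIs in chinmoST and 0.134%, 1.41% and 1.57% in wild-type.

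No other mRNA was separated in all types. mt:ND4 was above in 12 types and below in 1. mt:CoI was below in 11 types and above in none, with a library share of 23.5%, 18.8% and 18.4% in chinmoST and 24.4%, 20.5% and 20.2% in wild-type. mt:ND2 and mt:ND5 were above in 6 types each and mt:ND6 in 5, and mt:Cyt-b was below in 6.

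**Figure D5:**
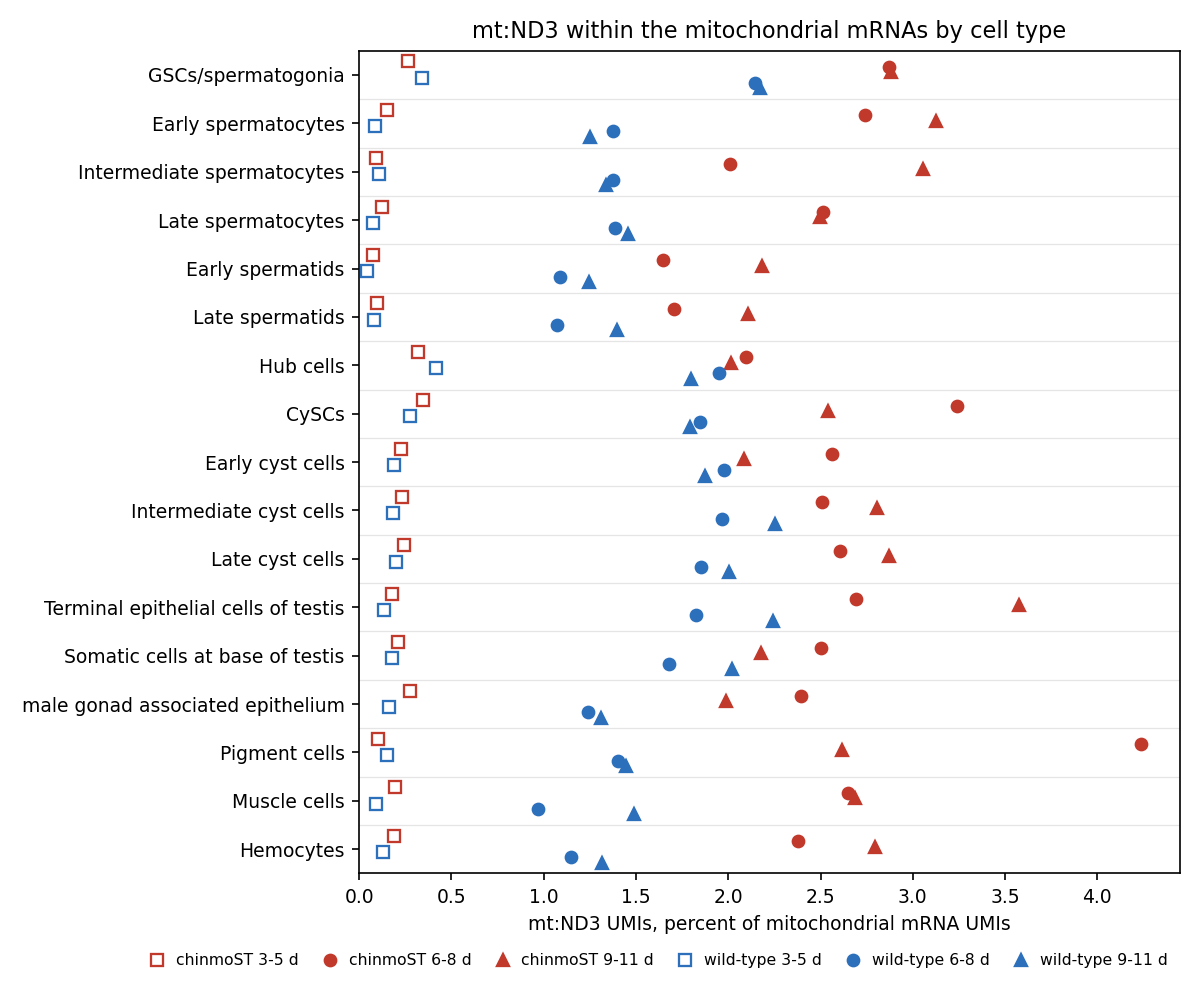
UMIs of mt:ND3 as percent of mitochondrial mRNA UMIs (horizontal axis) in the 17 cell types, 1 symbol per library, with chinmoST (red) above wild-type (blue). In every row both filled red symbols lie right of both filled blue symbols, with the narrowest gap in hub cells (2.01% against 1.95%), and the open squares of 3–5 d lie at 0.415% or lower.

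The nuclear partners of these genes were examined from lists of gene symbols. Most lists take every symbol with a given prefix, so paralogs of a subunit are not set apart. Their counts are read against the 25.2% of all genes called higher and 21.3% called lower in early spermatocytes, the 17.7% and 17.6% in late spermatocytes and the 4.34% and 5.45% in early spermatids. Subunits of ATP synthase and mitochondrial ribosomal proteins were mostly called in 1 direction in spermatocytes. In early spermatocytes 12 of 17 tested ATP synthase subunits were called higher and 1 lower (median log2 fold change 0.79), and in late spermatocytes 10 were called higher and 2 lower (0.45). Of the mitochondrial ribosomal proteins, 27 of 72 were higher and none lower in early spermatocytes (median 0.52), 27 of 71 higher and none lower in late spermatocytes (0.59), and 13 of 68 higher and none lower in intermediate spermatocytes, where 10.7% of genes were called higher and 13.2% lower. In early spermatids 2 ribosomal proteins were higher and 5 lower.

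The nuclear subunits of the other complexes were called in both directions, those of complex I at shares below the 25.2% and 21.3% of all genes in early spermatocytes. In early spermatocytes 7 of 39 complex I subunits were higher and 5 lower, 4 of 12 of complex III higher and 2 lower, and 10 of 17 of complex IV higher and 6 lower. In late spermatocytes 3 of 39 complex I subunits were higher and 8 lower, 1 of 12 of complex III higher and 3 lower, and 7 of 18 of complex IV higher and 7 lower. In intermediate cyst cells 6.03% of genes were called higher and 5.24% lower. There 4 of 17 complex IV subunits and 2 of 12 complex III subunits were lower and none was higher. Of the mitochondrial members of these complexes none was called. In CySCs none of the tested nuclear subunits was called. Their median log2 fold change was -1.09 for complex I, -1.34 for complex III, -1.59 for complex IV and -1.42 for ATP synthase. Over all genes tested it was 0.0357, and the later wild-type libraries held 4 and 7 CySCs. In pigment cells the medians were 0.66, 0.99, 1.27 and 1.61 in the same order and 0.0376 over all genes, with none called.

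Of 23 nuclear genes for the upkeep, transcription and RNA processing of the mitochondrial genome, 16 were tested in early spermatocytes, and 5 were higher in chinmoST and none lower, a share higher near the 25.2% of all genes. bsf, an RNA-binding protein of mitochondrial mRNAs, had 14.03, 38.2 and 46.4 CPM in chinmoST and 19.9, 17.1 and 16.0004 CPM in wild-type (log2 fold change 1.55, SE 0.424, edgeR adjusted p = 0.0026). scu, a subunit of the mitochondrial enzyme that trims the 5′ ends of tRNAs, had 47.7, 36.5 and 35.4 CPM in chinmoST and 48.9, 15.5 and 9.60 CPM in wild-type (1.62, SE 0.456, adjusted p = 0.0033). TFAM, which packs the mitochondrial DNA, had 95.4, 114 and 87.5 CPM in chinmoST and 88.7, 79.1 and 54.4 CPM in wild-type (0.74, SE 0.289, adjusted p = 0.0297). The later wild-type values of bsf and scu come from 3 to 11 UMIs. Alternative fits called TFAM in 6 of 13, scu in 9 of 13 and bsf in 10 of 13.

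The other 2 were counted near the floor in wild-type. mtSSB, which coats single-stranded mitochondrial DNA during replication, had 15 and 38 UMIs in later chinmoST and 1 and 0 UMIs in later wild-type (adjusted p = 2.9e-04, edgeR). mTTF, a transcription termination factor, had 28 and 46 UMIs in chinmoST and 2 and 3 UMIs in wild-type (adjusted p = 0.0021). The later wild-type libraries held 102 and 79 cells of this type, which limits what counts this low can show.

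In late spermatocytes 5 of 16 tested genes of this list were higher and none lower, where 17.7% of all genes were called higher and 17.6% lower. They were mtSSB (25 and 12 UMIs in chinmoST, 2 and 1 UMIs in wild-type, adjusted p = 5.4e-04), bsf (log2 fold change 1.57, adjusted p = 0.0114), mTerf5, a relative of mTTF (1.46, adjusted p = 0.0208), TFAM (0.83, adjusted p = 0.0260) and SLIRP2, an RNA-binding protein (0.84, adjusted p = 0.0460), all from edgeR. Alternative fits called SLIRP2 in 3 of 13, TFAM in 7 of 13, mTerf5 in 7 of 12, bsf in 9 of 13 and mtSSB in 9 of 9. In early spermatids mtSSB was higher (10 and 10 UMIs in chinmoST, 5 and 1 UMIs in wild-type, adjusted p = 0.0273) and rswl, a further subunit of the tRNA 5′ enzyme, was lower (-0.86, SE 0.205, adjusted p = 0.0284). In GSCs/spermatogonia TFAM, mtSSB and scu were called higher against 0 or 1 UMI in the later wild-type libraries.

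EndoG and PolG1 were not called in any of these types. In early spermatocytes EndoG had 19.6, 13.8 and 22.5 CPM in chinmoST and 38.0, 23.3 and 19.2 CPM in wild-type (log2 fold change -0.02, SE 0.447, edgeR adjusted p = 0.976), and PolG1 had 8.42, 14.61 and 24.4 CPM in chinmoST and 0, 7.75 and 19.2 CPM in wild-type (0.97, SE 0.517, adjusted p = 0.110). Both were lower in the late germline. EndoG averaged 1.99 ± 2.23 CPM in late spermatids and 19.7 ± 4.30 CPM in early spermatocytes of the 4 later libraries, and PolG1 averaged 5.99 ± 2.64 CPM in late spermatids and 16.5 ± 7.06 CPM in early spermatocytes (SD, n = 4). The late spermatid values of EndoG come from 4 and 4 UMIs in later chinmoST and 1 and 0 UMIs in later wild-type. Those of PolG1 come from 9 and 8 UMIs in chinmoST and 12 and 6 UMIs in wild-type.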

How the data were processed

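Reads had been aligned to dm6 by the authors with Cell Ranger 4.0.0, per the labels, and they deposited whole-number UMI counts per gene and barcode without normalization. Their deposited table of cells, made with Seurat 3.2.2 (the submitters' notes also name 3.0), gives the library, the cell type and the percent of mitochondrial UMIs of each kept cell. This percent differed from the value recomputed from the counts by at most 7.1e-15. The authors kept cells with 200 to 6000 genes and under 10% mitochondrial UMIs. Their cells and types were used unchanged, no doublet caller and no correction for free RNA were run, and 0 value columns of other samples were met.

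Counts were summed per library and cell type. A type entered a fit with at least 3 cells in each later library, which all 17 had. For the 4 later libraries the genotypes were tested by quasi-likelihood in edgeR 4.0.16 under R 4.3.3 (TMM scaling, default filter on low counts, genotype as the only term), adjusted over all genes tested in that type. The SE is the unshrunk log2 fold change divided by the square root of F, and it is left out where a later library had under 3 UMIs. For a value of 0 the upper limit was set at 3 counts. DESeq2 1.42.0 and 12 further settings were alternatives. Python 3.11.15 with numpy 2.4.6, pandas 2.3.3, scipy 1.17.1 and matplotlib 3.10.9 served for sums, intervals and plots. On counts simulated for early spermatocytes (7436 genes) the fit recovered 74% of genes changed 2-fold and 100% of those changed 4-fold, with 10 false calls. The simulation gave every gene the same dispersion, held only increases and had no effect of age. The recovery in the real libraries can therefore be lower.

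The members, the lists and the grouping of ages were chosen with earlier results of these data known. All mRNAs and rRNAs are named, and the 5 tRNAs with the most UMIs. Full values are given for called members, at most 6 per type by adjusted p, and for called nuclear genes of mitochondrial genome upkeep, at most 10, with EndoG and PolG1 always. mt:ATPase6 in late spermatocytes is given beyond that number because its call and its values disagree. The files do not name separate cultures for any library, so p-values measure the spread between these libraries only.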

Additional observations from a re-analysis of the deposited data

Results flagged for a closer look

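The effect of genotype differed between early and late spermatocytes for 13 mitochondrial genes, by the edgeR test of the difference itself, which was added after seeing the data. The effect in early minus that in late spermatocytes, on the log2 scale, was 1.63 for mt:ND3, 1.61 for mt:ND6, 1.55 for mt:ND5, 1.41 for mt:ND4, 1.23 for mt:ND2 and 1.23 for mt:ND1. It was 1.40 for mt:CoIII, 1.39 for mt:CoI, 1.29 for mt:CoII, 1.39 for mt:Cyt-b and 0.99 for mt:ATPase6, and 1.62 for mt:srRNA and 1.21 for mt:lrRNA. With the library as a block mt:ATPase6 was no longer past the threshold (adjusted p = 0.0722, edgeR) and the other 12 were. The types share libraries, and the median cell of this comparison had 1390 and 1476 UMIs in later chinmoST early spermatocytes and 3308 and 2581 UMIs in wild-type.

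Barcodes at or over 10% mitochondrial UMIs, which are outside the kept cells, made up 3.90%, 19.6% and 30.54% of barcodes in chinmoST at 3–5 d, 6–8 d and 9–11 d and 1.01%, 9.28% and 18.9% in wild-type, so each chinmoST library was above the wild-type library of its age. Summed over these barcodes, mitochondrial UMIs were 32.6%, 39.2% and 41.3% of all UMIs in chinmoST and 25.6%, 31.8% and 34.5% in wild-type. The origin of these barcodes was not tested.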

How the results depend on the processing

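Of 281 alternative fits of called genes, 197 kept the call, 84 kept the direction only and none reversed. Adding the 3–5 d libraries gave 0 calls in either direction, in all types, in early spermatocytes and in late spermatocytes, and with age as a replicate block it gave 9 higher and 0 lower over all types (main 17 and 5), 7 higher in early spermatocytes (14) and 0 lower in late spermatocytes (5). In late spermatocytes the fit of all 6 libraries called 0 of 7662 genes, and with age as a block 181 higher and 134 lower. The replicate block on the 4 later libraries gave 8 higher in early spermatocytes. There it called 1583 of 7569 genes higher and 1045 lower (main 1907 and 1611). It did not call mt:lrRNA in early spermatids (adjusted p = 0.0836, edgeR), where 531 of 8946 genes were called higher and 532 lower. Equal numbers mark equal ages only, the deviations of later pairs correlated at -0.31 to 0.23, and the pairing was above 0.1 in 2 of 17 types. Without TMM scaling 1 call was lower over all types and 1 in late spermatocytes, and without the filter 8 were lower over all types. The counts over all types have no share of all genes beside them, so no change in them is read as particular to the members. Leaving out a library gave 11 to 25 higher and 6 to 9 lower over all types, 6 to 13 higher in early spermatocytes and 0 to 5 lower in late spermatocytes.

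The germline difference of 1.23 points became 0.854 without the rRNAs, 0.300 as a median over cells, 0.795 under 5%, 0.0896 as an unweighted mean over types and, chosen after seeing the data, 0.328 without GSCs/spermatogonia, and 0.926 to 1.53 with a library left out. The somatic difference of 0.00758 turned to -0.146 without the rRNAs and -0.0221 at a common UMI minimum of 2105, and ran from -0.268 (without wild-type at 6–8 d) to 0.283 with a library left out, and to -0.0763 without chinmoST at 9–11 d. The ratio of later to 3–5 d levels was 8.37 over all barcodes and 2.67 per mitochondrial mRNA UMI for mt:lrRNA (main 4.37, 3.63 to 5.51 with a library left out), and 154 over all barcodes for mt:srRNA (main 66.5, 46.2 to 118). The cause of these changes was not tested. Depth limits GSCs/spermatogonia most, with 21736 and 21506 UMIs in the later wild-type libraries.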

Other observations

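Barcodes over the limit of 6000 genes, which were not among the kept cells, had a mitochondrial share of 0.639%, 1.85% and 2.11% in chinmoST and 0.442%, 1.20% and 1.12% in wild-type at 3–5 d, 6–8 d and 9–11 d, below that of the kept cells of the same library in each case. In the barcodes at or over 10% mitochondrial UMIs, mt:lrRNA stood at 24765, 134247 and 128907 CPM in chinmoST and 31291, 92430 and 69172 CPM in wild-type, and mt:CoI at 54791, 40480 and 45061 CPM in chinmoST and 44335, 37920 and 45726 CPM in wild-type. The level of mt:lrRNA was thus higher in each later library than in both 3–5 d libraries among these barcodes too, while that of mt:CoI overlapped between the ages.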
